A study of Mus musculus with 6 samples.

Results

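The 10 genes described here serve the calcium cycle of the cardiomyocyte, at its sarcoplasmic reticulum or its surface membrane. They are Cacna1c, Ryr2, Casq2, Trdn, Jph2, Hrc, Atp2a2, Pln, Sln and Slc8a1. They were chosen by name for this role and not by their values, and they are 10 of the 38293 genes in the count table. RNA came from hearts of adult mice of the C57BL/6J (backcrossed) strain, 14 days after a permanent occlusion of the left anterior descending artery, and each of 3 WT and 3 Zeb2 cKO samples gave 1 library. All 6 mice had the infarct, so no uninjured heart is among them. The Zeb2 cKO mice carried floxed Zeb2 alleles (Zeb2 fl/fl) and a Cre recombinase driven by the murine Myh6 promoter, which deletes Zeb2, a transcription factor of the zinc finger E-box binding family, in cardiomyocytes. The group labelled WT is described in the study as Zeb2 fl/fl, and no group with Cre alone is among the samples. The labels place the tissue in the border region of the infarct, whereas the methods of the study name the remote zone. Every library held RNA of all cell types of the tissue, so that fewer cardiomyocytes and less RNA per cardiomyocyte cannot be told apart.

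In a heartbeat, calcium that enters through the L-type channel opens the ryanodine receptor, and the store of the sarcoplasmic reticulum empties into the cytosol. SERCA2a pumps it back under the brake of phospholamban or, in the atrium, mainly sarcolipin, and the sodium-calcium exchanger carries the rest out of the cell. In failing hearts this cycle is a well-known site of change, with the ratio of phospholamban to SERCA2a as its classic readout.

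Both SERCA inhibitors are very short membrane proteins, and their whole coding sequences are shown because the ratios of these transcripts to Atp2a2 carry much of what follows. Each lies within a single exon. The phospholamban coding sequence has 159 bases at chr10:53343864-53344022 on the plus strand of GRCm38, and that of sarcolipin has 96 bases at chr9:53853473-53853568 on the plus strand. Capitals mark the start and the stop codon.
Pln: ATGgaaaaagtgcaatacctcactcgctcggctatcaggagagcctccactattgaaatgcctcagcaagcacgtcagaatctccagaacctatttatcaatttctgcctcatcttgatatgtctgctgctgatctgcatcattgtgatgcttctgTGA
Sln: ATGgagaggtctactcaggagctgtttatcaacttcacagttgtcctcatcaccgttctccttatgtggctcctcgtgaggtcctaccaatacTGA
These bases are only 5.76% of the annotated exons of Pln and 7.28% of those of Sln. At the other end of the size range, the coding sequence of Ryr2 has 14901 bases in 105 coding exons.

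The 6 libraries held between 37288174 and 51136331 counts, of which 14301225 to 19024394 fell outside the mitochondrially encoded genes. One library stood apart. In WT replicate 2, the summed CPM (counts scaled to the TMM-normalized library size) of 16 cardiomyocyte markers was 0.556 of the median of the other 5 libraries, and 15 of the 16 markers were lowest there. The 10 fibroblast markers were together 5.21 times and the 10 macrophage markers 3.14 times that median, and all of them were highest in this library. The cardiomyocyte markers Myh6 and Tnnt2 were abundant in every library, at 2767 and 704 CPM or more, and Bmp10, a defining atrial marker, was at 0 in all 6. Zeb2 itself was highest there too, at 116 CPM against 61.3 and 71.9 CPM in the other WT libraries and 59.6 to 72.6 CPM in Zeb2 cKO. Fold changes are therefore given with all libraries and without WT replicate 2.

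The calcium handling genes together took 2.39, 1.30 and 2.28% of the counts outside mitochondrially encoded genes in WT replicates 1 to 3. The share was 2.52, 2.42 and 2.17% in Zeb2 cKO replicates 1 to 3, so WT replicate 2 was low and the others lay close together. All 10 of 10 passed the filter on low counts. None was called between the genotypes by edgeR's quasi-likelihood test at an adjusted p of 0.05, beside 0% of all 14746 tested genes. At an unadjusted p under 0.05 the count was also 0 of 10, beside 1.9% of all tested genes (0.861% lower and 1.04% higher in Zeb2 cKO), and it was 0 of 10 without WT replicate 2, beside 2.63%. DESeq2 called 0 of the 10 and 2 of all genes at an adjusted p of 0.05. The groups overlapped in all 10 genes, whereas they did not overlap in 6.36% of all tested genes (2.97% lower and 3.39% higher in Zeb2 cKO). With 3 libraries a group, p-values weigh the difference between the groups against a spread estimated from these few libraries only.

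**Figure D1:**
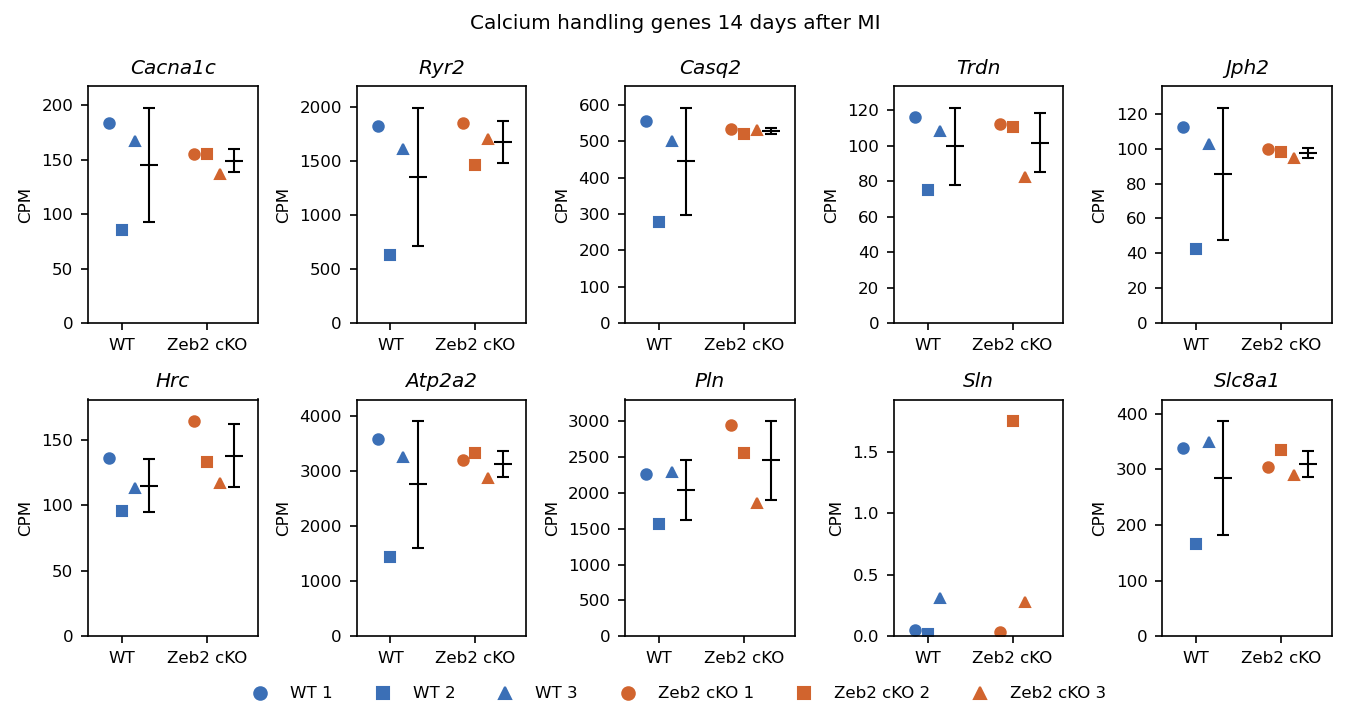
CPM (vertical axis, linear, from 0) of each of the 10 calcium handling genes in the 3 WT (blue) and 3 Zeb2 cKO (orange) libraries, with circle, square and triangle for replicates 1, 2 and 3. Black bars give mean ± SD (n = 3), left out for Sln, and the WT replicate 2 square is the lowest point in every panel.

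The trigger of release is the L-type calcium channel, whose pore-forming subunit is encoded by Cacna1c (ENSMUSG00000051331, chr6:118587240-119196418, minus strand). Cacna1c was at 184, 85.3 and 167 CPM in WT replicates 1, 2 and 3, while the Zeb2 cKO replicates had 155, 155 and 137 CPM. WT replicate 2 was far below all others, the other WT libraries were the highest of the 6, and the Zeb2 cKO libraries lay between. Fitted over all libraries, the log2 fold change of Zeb2 cKO against WT was 0.036 (standard error 0.28, 95% interval -0.64 to 0.71, adjusted p = 0.991 by edgeR's quasi-likelihood test). Without WT replicate 2 it was -0.23 (standard error 0.11, unadjusted p = 0.0695), the lowest value of the 10 genes in that fit. Both fits leave the gene uncalled, and the direction turned with a single library.

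Ryr2 (ENSMUSG00000021313, chr13:11553102-12106945, minus strand) encodes the release channel of the sarcoplasmic reticulum. It was at 1826, 624 and 1607 CPM in WT and at 1848, 1465 and 1700 CPM in Zeb2 cKO, in the order of the replicates. WT replicate 2 stood at 36.7% of the median of the others, the deepest drop of any gene of the 10 apart from the scarce Sln, and the highest of the other 5 libraries was 126% of the lowest. Its log2 fold change was 0.31 (standard error 0.40, 95% interval -0.64 to 1.25, adjusted p = 0.957 by edgeR's quasi-likelihood test) and -0.036 (standard error 0.15) without WT replicate 2. The coefficient of variation of Ryr2 was 47.4% in WT and 11.6% in Zeb2 cKO.

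Casq2 (ENSMUSG00000027861, chr3:102086415-102146514, plus strand) encodes cardiac calsequestrin, which holds calcium inside the store. WT libraries gave 556, 277 and 501 CPM, and Zeb2 cKO libraries gave 534.5, 520 and 532 CPM. The Zeb2 cKO values were nearly the same, with a coefficient of variation of 1.42% against 33.2% in WT, and they lay between WT replicates 1 and 3. Accordingly, the log2 fold change was 0.25 (standard error 0.27) with all libraries and 0.0026 (standard error 0.11) without WT replicate 2. The mean of the Zeb2 cKO libraries was then 1.00 times that of WT replicates 1 and 3.

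Trdn (ENSMUSG00000019787, chr10:33080554-33476709, plus strand) encodes triadin, which anchors calsequestrin to the ryanodine receptor. It was at 116, 74.9 and 108 CPM in WT and at 112, 110.5 and 82.5 CPM in Zeb2 cKO. The lowest 2 libraries belonged to different groups, WT replicate 2 and Zeb2 cKO replicate 3. Its log2 fold change of 0.029 (standard error 0.21) was the smallest of the 10 genes, and it was -0.14 (standard error 0.15) without WT replicate 2.

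Jph2 (ENSMUSG00000017817, chr2:163336242-163397993, minus strand) encodes junctophilin 2, the tether that holds the store close to the T-tubule. WT libraries were at 112, 42.2 and 102 CPM and Zeb2 cKO libraries at 99.8, 98.2 and 94.4 CPM. As for Cacna1c, every Zeb2 cKO library lay between WT replicate 2 and the other WT libraries. Its log2 fold change was 0.19 (standard error 0.34) and turned to -0.14 (standard error 0.097, unadjusted p = 0.198 by edgeR's quasi-likelihood test) without that library.

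Hrc (ENSMUSG00000038239, chr7:45335290-45338974, plus strand) encodes the histidine-rich calcium binding protein of the store, a partner of triadin and SERCA2a. It was at 136, 95.7 and 113 CPM in WT and at 164, 133 and 117 CPM in Zeb2 cKO. The highest library was Zeb2 cKO replicate 1, but the ranges crossed. Its log2 fold change was 0.26 (standard error 0.20, unadjusted p = 0.224 and adjusted p = 0.957 by edgeR's quasi-likelihood test), the smallest unadjusted p after that of Sln. It was 0.15 (standard error 0.16) without WT replicate 2 and above 0 with any 1 library left out, from 0.12 to 0.40.

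Reuptake depends on SERCA2a, encoded by Atp2a2 (ENSMUSG00000029467, chr5:122453513-122502225, minus strand). Atp2a2 was at 3578, 1449 and 3260 CPM in WT and at 3199, 3338 and 2874 CPM in Zeb2 cKO. Apart from WT replicate 2, the libraries of both groups mixed in order. Its log2 fold change was 0.18 (standard error 0.37, 95% interval -0.69 to 1.05, adjusted p = 0.959 by edgeR's quasi-likelihood test), and -0.12 (standard error 0.14) without WT replicate 2.

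Phospholamban, the inhibitor that releases SERCA2a when it is phosphorylated, is encoded by Pln (ENSMUSG00000038583, chr10:53337667-53345987, plus strand). It was at 2262, 1558 and 2286 CPM in WT and at 2935, 2558 and 1859 CPM in Zeb2 cKO. Zeb2 cKO replicates 1 and 2 were above every WT library, whereas Zeb2 cKO replicate 3 was below WT replicates 1 and 3. For Pln the log2 fold change was 0.27 (standard error 0.28, 95% interval -0.39 to 0.93, adjusted p = 0.957 by edgeR's quasi-likelihood test) and 0.11 (standard error 0.20) without WT replicate 2. Pln was, besides Sln, the only gene of the 10 that spread more among the Zeb2 cKO libraries (coefficient of variation 22.3%) than among the WT libraries (20.3%). Of its longest transcript, 65.0% lies opposite to exons of other annotated genes, mostly a noncoding one (Gm47644) that the count table does not list. Whether reads of the opposite strand were counted for Pln was not tested, since the strand option of the counting is not given in the sources used here.

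Sarcolipin, the second SERCA inhibitor, is encoded by Sln (ENSMUSG00000042045, chr9:53850164-53854560, plus strand). Only 2, 1 and 12 reads were counted in WT replicates 1 to 3 and 2, 76 and 15 reads in Zeb2 cKO replicates 1 to 3. These are 0.0531, 0.0228 and 0.312 CPM against 0.0400, 1.75 and 0.279 CPM. A single library, Zeb2 cKO replicate 2, held most reads of the gene, and Zeb2 cKO replicate 1 was as low as WT replicate 1. The fitted log2 fold change of 2.39 had a standard error of 1.35 (95% interval -0.81 to 5.59, adjusted p = 0.957 by edgeR's quasi-likelihood test). Without WT replicate 2 it was 1.86 (standard error 1.37), without Zeb2 cKO replicate 2 it was 0.34, and the ratio of the mean CPM of Zeb2 cKO to that of WT went from 5.33 to 1.23. Leaving out Zeb2 cKO replicate 1 instead gave 2.96, with an unadjusted p of 0.0396 and an adjusted p of 0.9995 in edgeR's test.

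Some atrial transcripts, but not most of those listed, were high with Sln in Zeb2 cKO replicate 2. Myl7, the atrial myosin regulatory light chain, was at 0.717, 0.114 and 0.911 CPM in WT and at 0.540, 7.26 and 1.23 CPM in Zeb2 cKO. Myl4, the atrial essential light chain, was at 1.57, 1.37 and 2.40 CPM in WT and at 1.58, 8.07 and 3.07 CPM in Zeb2 cKO, and Mybphl was at 1.27 CPM in Zeb2 cKO replicate 2 and at most 0.312 CPM elsewhere. Of the 8 atrial markers, 3 were highest in Zeb2 cKO replicate 2, and Bmp10 was at 0 there as in all libraries. Nppa, which ventricular cardiomyocytes also express under load, made up most of the summed atrial list. It was lowest in Zeb2 cKO replicate 2, at 131 CPM, against 189 and 188 CPM in Zeb2 cKO replicates 1 and 3. In WT it was at 309 to 717 CPM. The list sum was 405 to 822 CPM in WT and 233 to 285 CPM in Zeb2 cKO. The part of atrial RNA in the Sln values was not tested.

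**Figure D2:**
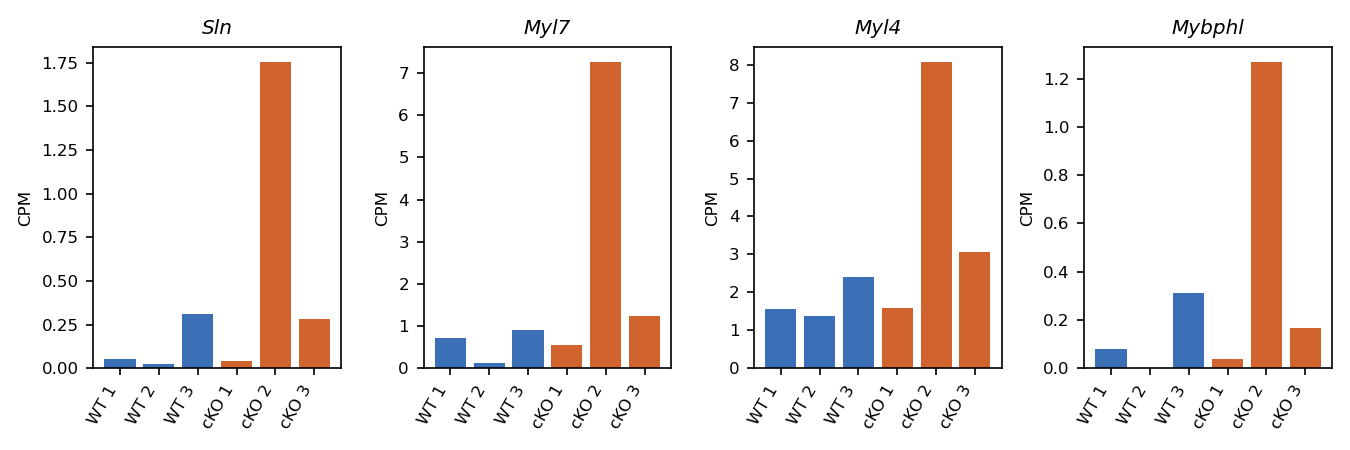
CPM (vertical axis, linear, from 0) of Sln and of the atrial transcripts Myl7, Myl4 and Mybphl in each of the 6 libraries, WT in blue and Zeb2 cKO in orange. All 4 are highest in Zeb2 cKO replicate 2, where Sln reached 1.75 CPM and Myl7 7.26 CPM. The other listed atrial markers, not shown, were not highest there.

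Extrusion to the outside runs through the sodium-calcium exchanger NCX1, encoded by Slc8a1 (ENSMUSG00000054640, chr17:81373105-81738377, minus strand). It was at 339, 166 and 348 CPM in WT and at 305, 334 and 289 CPM in Zeb2 cKO. The Zeb2 cKO libraries again lay between WT replicate 2 and the other WT libraries. For Slc8a1 the log2 fold change was 0.12 (standard error 0.29) and -0.15 (standard error 0.11, unadjusted p = 0.225 by edgeR's quasi-likelihood test) without WT replicate 2.

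With all libraries the fitted log2 fold changes were above 0 in 10 of 10 genes, beside 48.6% of all tested genes, with a median of 0.22 against -0.0069 over all tested genes. Without WT replicate 2 they were above 0 in 4 of 10, beside 50.9% of all genes, with a median of -0.079 against 0.0025. In that setting Cacna1c, Jph2 and Slc8a1 were lower in every Zeb2 cKO library than in WT replicates 1 and 3, which held for 3 of the 10 genes and for 7.46% of all tested genes, while 0 of the 10 were higher in every Zeb2 cKO library, beside 8.07% of all genes. The Zeb2 cKO means of these genes were 0.850, 0.908 and 0.901 times the mean of WT replicates 1 and 3. The set of 10 is small and its members shared WT replicate 2 as their lowest library in all 10 cases, so they are not 10 independent readings of the genotype. Exact permutation tests over the 6 libraries, whose smallest two-sided p is 0.1, gave p between 0.4 and 1 for each gene.

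**Figure D3:**
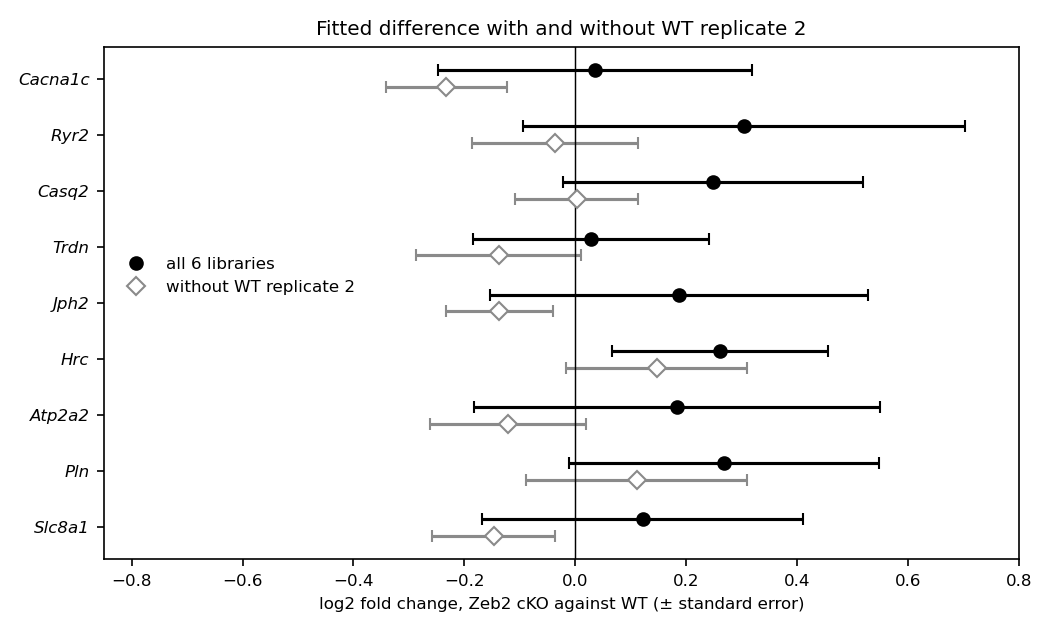
Log2 fold change of Zeb2 cKO against WT from edgeR (horizontal axis) for 9 calcium handling genes, with all 6 libraries (filled circles) and without WT replicate 2 (open diamonds). Bars are ± 1 standard error, Sln is left out because its standard error is 1.35, and 6 of the 9 values cross from above to below 0 once that library is left out.

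WT replicate 2 was low by unequal amounts among the genes. Its CPM was 36.7% of the median of the other libraries for Ryr2, 42.3% for Jph2, 44.4% for Atp2a2 and 49.7% for Slc8a1. It was milder for Casq2 at 52.2% and Cacna1c at 55.0%, and mildest for Trdn at 67.8%, Pln at 68.2% and Hrc at 72.0%. The cardiomyocyte markers, summed, stood at 0.556 of the median. Ryr2, Jph2, Atp2a2, Slc8a1, Casq2 and Cacna1c, the last by a small margin, were below that share and Pln, Trdn and Hrc above it. Most of the sum was Ttn, and single markers stood between 0.361 (Tcap) and 0.846 (Myl2), a range that holds all these genes. Against the mean log2 CPM of the markers, WT replicate 2 less the median of the others was 0.021 for Cacna1c and -0.025 for Casq2. The sorting of these genes therefore depends on the reference.

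On the scale of log2 CPM less the mean log2 CPM of the 16 cardiomyocyte markers, Ryr2 was at 0.25, -0.23 and 0.27 in WT and at 0.41, 0.12 and 0.50 in Zeb2 cKO. Pln was at 0.56, 1.09 and 0.78 in WT and at 1.08, 0.92 and 0.63 in Zeb2 cKO. Thus WT replicate 2 was the lowest library for Ryr2 and the highest for Pln once the markers were set against them. Casq2 was at -1.46, -1.40 and -1.41 in WT and at -1.38, -1.38 and -1.17 in Zeb2 cKO, higher in every Zeb2 cKO library by 0.11 on average. Cacna1c was at -3.06, -3.10 and -2.99 in WT and at -3.16, -3.12 and -3.13 in Zeb2 cKO, lower in every Zeb2 cKO library by 0.087 on average. On this scale 1.34% of all tested genes were higher and 1.09% lower in every Zeb2 cKO library, beside 1 and 1 of the 10 genes, and the other 8 genes overlapped. When only Myh6, Tnnt2 and Actn2 served as the reference, Casq2 and Cacna1c overlapped too, so neither separation held with both references.

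**Figure D4:**
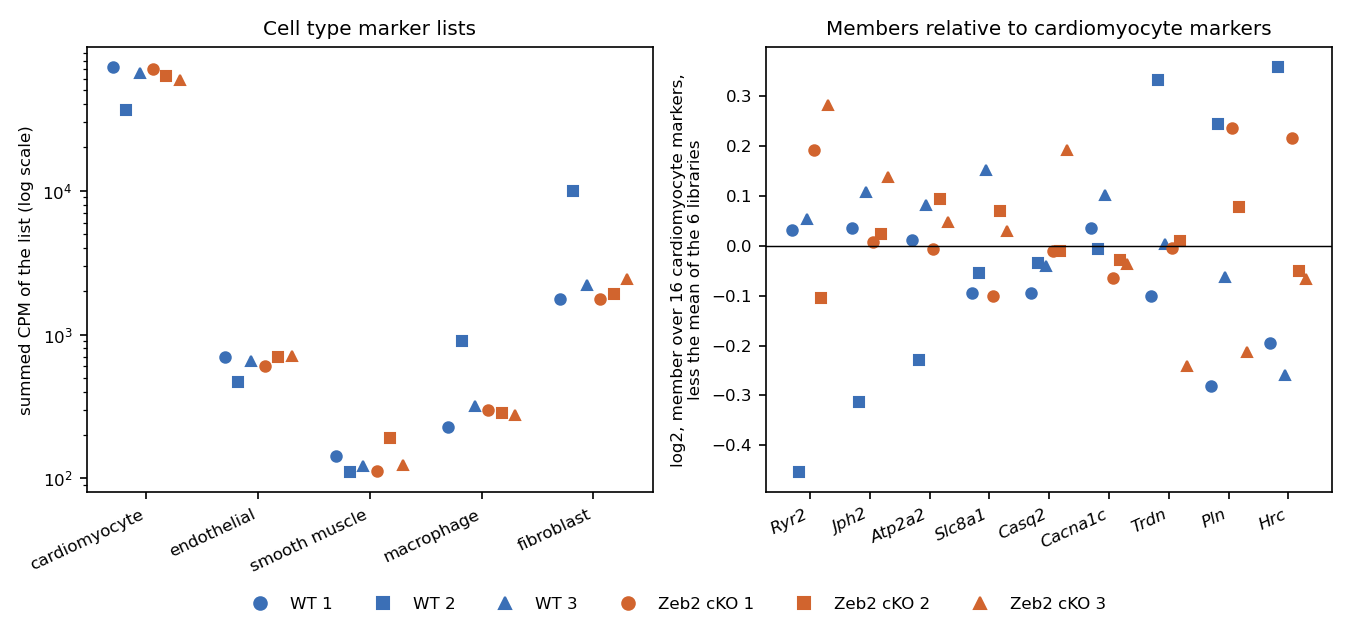
Left, summed CPM of 5 cell type marker lists in each library on a log axis. Right, log2 of each calcium handling gene over 16 cardiomyocyte markers, less its mean over the 6 libraries, with WT in blue, Zeb2 cKO in orange and Sln left out; the WT replicate 2 square is lowest for Ryr2, Jph2 and Atp2a2 and highest for Trdn, Pln and Hrc.

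Per kilobase of exon, the genes spanned more than 3 orders of magnitude. RPKM (here CPM per kilobase of annotated exon) over all 6 libraries was 813 ± 177 for Pln, 485 ± 127 for Atp2a2 and 178 ± 38.1 for Casq2 (mean ± SD, n = 6). The release channel and the store protein Hrc came next at 52.5 ± 15.9 RPKM for Ryr2 and 49.3 ± 9.20 RPKM for Hrc, and these neighbours changed places between libraries, with Ryr2 above Hrc in 4 of 6. Jph2 followed at 21.5 ± 5.86 RPKM, Slc8a1 at 15.8 ± 3.60 RPKM, Trdn at 10.8 ± 1.87 RPKM and Cacna1c at 6.95 ± 1.61 RPKM. In each neighbouring pair other than Ryr2 and Hrc the higher gene was higher in all 6 libraries, although the ranges over libraries overlapped for Pln and Atp2a2 and among Jph2, Slc8a1, Trdn and Cacna1c. Sln closed the order at 0.311 ± 0.508 RPKM. With the longest transcript in place of all exons, Trdn moved from place 8 to place 6 and 7 of 10 genes stayed in place, so the order of Jph2, Slc8a1 and Trdn depends on the length used.

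The ratio of Pln to Atp2a2, the brake relative to the pump, does not depend on how libraries are scaled. Per kilobase it was 1.39, 2.37 and 1.55 in WT replicates 1 to 3, while Zeb2 cKO replicates 1 to 3 had ratios of 2.02, 1.69 and 1.43. WT replicate 2 had the highest ratio and WT replicate 1 the lowest, with the Zeb2 cKO libraries between them. The mean log2 ratio differed by -0.022 between Zeb2 cKO and WT (SD 0.41 in WT and 0.25 in Zeb2 cKO, n = 3 each, exact permutation test, two-sided p = 1). Without WT replicate 2 the difference was 0.21 and Zeb2 cKO replicate 3 still lay between the remaining WT libraries.

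The ratio of Cacna1c to Ryr2, the trigger relative to the release channel, was 0.137, 0.186 and 0.141 per kilobase in WT and 0.114, 0.144 and 0.109 in Zeb2 cKO. Zeb2 cKO replicates 1 and 3 were below every WT library, while Zeb2 cKO replicate 2 lay above WT replicates 1 and 3. The log2 difference was -0.33 (exact permutation test, two-sided p = 0.3, and 0.84 after Benjamini-Hochberg adjustment over the 6 ratios). It was below 0 with any 1 library left out, from -0.45 to -0.19, the latter without WT replicate 2, the only ratio apart from that of Slc8a1 to Atp2a2 and those with Sln that kept its direction in this way.

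The ratio of Casq2 to Ryr2, the store protein relative to the release channel, was 3.21, 4.68 and 3.28 per kilobase in WT and 3.04, 3.74 and 3.29 in Zeb2 cKO. Only WT replicate 2 stood out, above all others, and the log2 difference of -0.13 (exact permutation test, two-sided p = 0.7) was 0.044 without it. The ratio of Slc8a1 to Atp2a2, extrusion relative to reuptake, was the steadiest, at 0.0306, 0.0371 and 0.0345 in WT and 0.0308, 0.0324 and 0.0325 in Zeb2 cKO. Its log2 difference was -0.091 (exact permutation test, two-sided p = 0.4), and it was -0.027 without WT replicate 2. The ratio of Sln to Atp2a2 differed by 1.61 and that of Sln to Pln by 1.63 on the log2 scale (exact permutation tests, two-sided p = 0.6 and 0.5). Without WT replicate 2 these values were 1.19 and 0.98, and without Zeb2 cKO replicate 2 they were 0.31 and 0.33. Over the 6 ratios the adjusted p lay between 0.84 and 1.

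**Figure D5:**
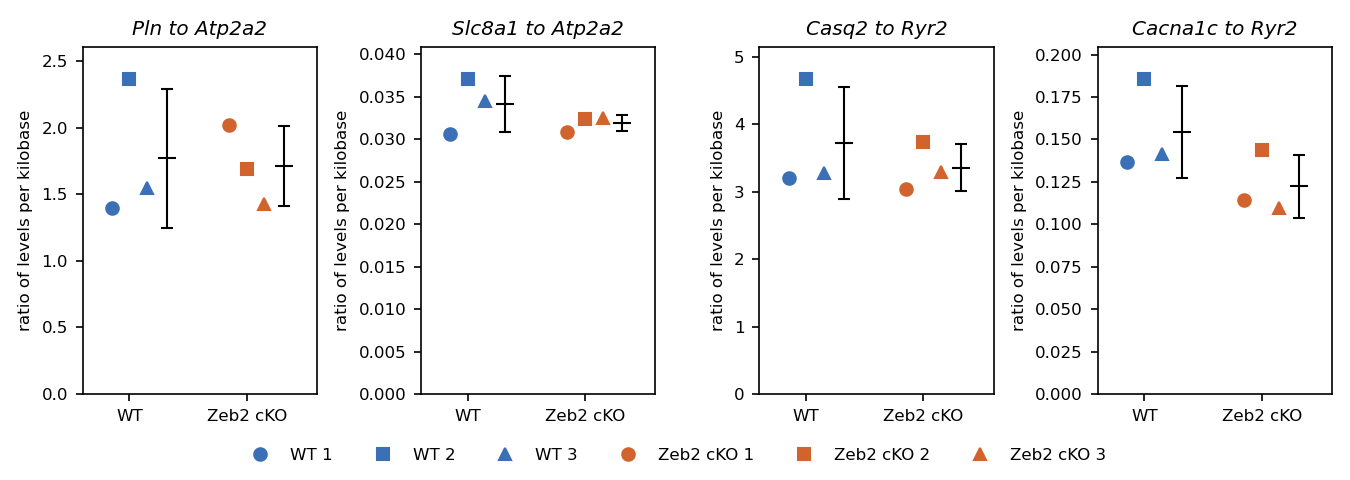
Ratio of the levels per kilobase of exon (vertical axes, linear, from 0) for 4 pairs of calcium handling genes in the 3 WT (blue) and 3 Zeb2 cKO (orange) libraries, with mean ± SD (n = 3) as black bars. WT replicate 2 (blue square) has the highest value in all 4 panels, 2.37 for Pln to Atp2a2, and the groups overlap in each.

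The other genes of the calcium cycle were read from a list of 74 genes in 8 roles, of which 68 were tested. None was called by edgeR's test at an adjusted p of 0.05, and 1 had an unadjusted p under 0.05, lower in Zeb2 cKO, beside 0.861% of all tested genes that were lower at this p. The groups did not overlap in 3 genes that were lower (Ryr3 and Tmem38b among them) and 3 that were higher (Hax1, S100a1 and Ppp1ca), beside 2.97% and 3.39% of all tested genes. The median log2 fold change was 0.052 and, without WT replicate 2, 0.012.

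Among ryanodine receptor isoforms and partners, 1 of 7 tested genes was lower by unadjusted p. That gene was Ryr3, the isoform that is scarce in heart muscle, at 0.956, 0.934 and 0.911 CPM in WT and 0.739, 0.576 and 0.503 CPM in Zeb2 cKO. Every Zeb2 cKO library was below every WT library, and WT replicate 2 did not stand apart. Its log2 fold change was -0.62 (standard error 0.24, unadjusted p = 0.0374 and adjusted p = 0.957 by edgeR's quasi-likelihood test), and -0.62 without WT replicate 2, where the unadjusted p was 0.0593. Only 25 to 41 reads per library were behind it.

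Among SERCA isoforms and regulators, 0 of 5 tested genes had an unadjusted p under 0.05 in edgeR's test, and all 5 had a log2 fold change above 0 with and without WT replicate 2. S100a1, a calcium sensor that increases SERCA2a and ryanodine receptor activity, was at 171, 156 and 177 CPM in WT and at 228.5, 188 and 179 CPM in Zeb2 cKO. All Zeb2 cKO libraries were above all WT libraries, the nearest by a small margin, and the log2 fold change was 0.24 (standard error 0.15, unadjusted p = 0.16 by edgeR's test) and 0.19 without WT replicate 2. Ppp1r1a, which encodes protein phosphatase inhibitor 1, had at most 15 reads in a library and a fitted log2 value of 0.49 (standard error 0.35), or 0.61 without WT replicate 2.

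Among junction and membrane or lumen proteins of the store, 0 of 11 tested genes had an unadjusted p under 0.05 in edgeR's test. Casq1, the skeletal muscle calsequestrin, was at 7.91, 2.07 and 7.19 CPM in WT and at 15.3, 7.14 and 14.8 CPM in Zeb2 cKO. Zeb2 cKO replicates 1 and 3 were above every other library, and Zeb2 cKO replicate 2 was just below WT replicate 3. For Casq1 the log2 fold change was 1.12 (standard error 0.51, unadjusted p = 0.065 by edgeR's test) and 0.73 (unadjusted p = 0.0494) without WT replicate 2. Tmem38b, which encodes the counter-ion channel TRIC-B, was lower in every Zeb2 cKO library, by -0.24 on the log2 scale (standard error 0.13, unadjusted p = 0.105 by edgeR's test) and by -0.21 without WT replicate 2. Its muscle paralogue Tmem38a had a log2 value of 0.21, which was 0.0013 without WT replicate 2, and Srl, which encodes the store protein sarcalumenin, went from 0.16 to -0.14.

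In the other 5 roles, 0 of 9 calcium channel subunits, 0 of 9 pumps and exchangers of the sarcolemma, 0 of 8 genes of IP3 receptors and store-operated entry, 0 of 12 kinases and phosphatases and 0 of 7 mitochondrial calcium transporters had an unadjusted p under 0.05 in edgeR's test. Stim1, the sensor of an empty store, stood at -0.25 on the log2 fold change scale (standard error 0.17) and at -0.070 without WT replicate 2. Prkar1a, a regulatory subunit of protein kinase A, stood at -0.16 (standard error 0.19) and at -0.30 without that library (unadjusted p = 0.053 by edgeR's test).

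The genes most like 4 of the calcium handling genes across the 6 libraries were sought by Pearson's r of log2 CPM among 5896 tested genes of at least 10 CPM on average. For Ryr2 they were Neb (r = 0.998), BC034090 and Mrs2, and for Atp2a2 they were Prpf4b (r = 0.999), Nbr1 and Flot2. For Pln they were Atp5h (r = 0.996), Vdac3-ps1 and Gpr22, and for Sln they were Atp9b (r = 0.958), Pgrmc2 and St3gal6. These genes were picked from 5896 over only 6 libraries, of which WT replicate 2 differed in composition. Neb was at 3.58 CPM in WT replicate 2 against 11.2 to 15.6 CPM elsewhere. Gpr22 followed Pln to its highest value of 34.0 CPM in Zeb2 cKO replicate 1. The values for Sln rest on 2, 1 and 12 reads in WT and 2, 76 and 15 reads in Zeb2 cKO. Atp9b was nearly flat, at 20.2 to 22.1 CPM, with 20.4 CPM in WT replicate 2.

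Since ZEB2 binds E-boxes, the 250 bases before the annotated starts were read on both strands for the E-box CACCTG, from the RefSeq promoter table of GRCm38.p6. The table held 10 windows of 7 of the 10 genes. The motif was in 1 of these 10 windows and in 17.2% of all 32851 windows. That window belongs to Ryr2 and is shown with the motif in capitals, as CAGGTG, its reading on the opposite strand. It lies at chr13:12106946-12107195 on the minus strand, and the motif begins 102 bases before the start.
Ryr2: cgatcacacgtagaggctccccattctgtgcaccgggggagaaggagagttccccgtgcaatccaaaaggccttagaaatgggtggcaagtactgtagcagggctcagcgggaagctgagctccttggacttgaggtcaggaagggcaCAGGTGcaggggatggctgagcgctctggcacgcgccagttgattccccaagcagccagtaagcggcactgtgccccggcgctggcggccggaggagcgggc
The match is one of letters only, and binding was not measured in these data.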

How the data were processed

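RNA-seq counts of 3 WT and 3 Zeb2 cKO heart samples 14 days after MI were used, with groups and replicate numbers from the sample titles. After removal of ribosomal RNA the authors made stranded libraries, mapped the reads with STAR and counted genes of Gencode M4 (GRCm38), and they deposited raw counts in 1 table. The handling of multimapped reads and the strand option are not given in the sources used here. The authors' own test, DESeq, was not used.

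Symbols, coordinates and exon lengths came from Gencode M21 of the same build, by gene identifier (36429 of 38293 matched). The 10 genes, the list of other calcium handling genes and the marker lists were chosen with earlier results of these data known. Of the 74 listed genes 73 were matched, and Strit1 was not analysed here. TMM factors and the filterByExpr filter came from edgeR 4.0.16 under R 4.3.3, and genotype was tested with glmQLFit and glmQLFTest, with Benjamini-Hochberg adjustment over the 14746 genes kept. Fitted fold changes used a prior count of 0.125. DESeq2 1.42.0 was an alternative. Ratios were compared by exact permutation over libraries. RPKM was CPM per kilobase of the union of annotated exons. Overlaps with other genes were checked with BLAST 2.17.0 at 95% identity over at least 75 bases. At this depth counting error matters only for genes of few reads such as Sln, and otherwise precision is set by the spread between libraries.

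On simulated counts with the means and library sizes of these libraries, edgeR recovered 27 of 100 genes with a log2 change of 1 and 81 of 100 with a log2 change of 2, and it called 4 genes that had not been changed, with 14580 genes tested. For DESeq2 these numbers were 49, 94 and 40.

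Named besides the 10 genes and Zeb2 are, of the other calcium handling genes, the 8 of smallest unadjusted p and the 5 most abundant per length, the 3 genes most like each of Ryr2, Atp2a2, Pln and Sln, and markers; some of these are counted but not reported here. Mybphl, Myl4, Hax1, Ppp1ca and the genes of the last section were named after their values were seen. Replicate numbers occur in both groups, but same-numbered samples differ in genotype and so in animal. Alternatives covered normalization, filter, test, dispersions, mitochondrially encoded genes, the replicate number, a cardiomyocyte covariate, length and leaving out each library. The check of Sln and atrial transcripts without Zeb2 cKO replicate 2 was added after seeing the data.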

Additional observations from a re-analysis of the deposited data

How the results depend on the processing

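No gene of the 10 was called at an adjusted p of 0.05 under any alternative, and with any 1 library left out the one gene with an unadjusted p under 0.05 was Sln, without Zeb2 cKO replicate 1. WT replicate 2 decided most directions. With libraries left out in turn, the log2 fold change ranged from -0.036 to 0.58 for Ryr2, -0.12 to 0.41 for Atp2a2, -0.14 to 0.16 for Trdn, -0.14 to 0.43 for Jph2, -0.15 to 0.29 for Slc8a1, -0.23 to 0.24 for Cacna1c and -0.14 to 0.38 for Srl. Trdn was also below 0 without Zeb2 cKO replicate 1 (-0.049) and without Zeb2 cKO replicate 2 (-0.032). The log2 difference of the ratio of Pln to Atp2a2 ranged from -0.17 to 0.21 and that of Casq2 to Ryr2 from -0.23 to 0.044. With the mean of the cardiomyocyte markers as a covariate, Trdn was at -0.083, Slc8a1 at -0.010 and Cacna1c at -0.0996. The cause was not tested.

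Of the other calcium handling genes, 1 had an unadjusted p under 0.05, 2 without a filter on low counts, 3 with the cardiomyocyte covariate and 1 to 4 with libraries left out. The gene was not always the same: with DESeq2, without the filter and with the replicate block Ryr3 was not among them and Casq1 was (unadjusted p = 0.0274, 0.03 and 0.00161). Without Zeb2 cKO replicate 2 the 4 genes were Atp2a1, Ryr1, Jsrp1 and Casq1. Mean CPM of Mybphl in Zeb2 cKO was 0.794 of that in WT without Zeb2 cKO replicate 2. Deviations of same-numbered libraries correlated at 0.076, -0.13 and -0.073, and those of differently numbered libraries at -0.25 to 0.23. With so few libraries these values cannot tell whether the numbers paired the mice. With the replicate number as a block the median log2 fold change of the 10 genes was 0.27, 0 were called and the ratio of Pln to Atp2a2 differed by -0.022. The block turned no direction among these values.

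With 3 libraries a group, the 95% intervals of all 10 genes include 0 and extend to both sides of it, for Trdn from -0.48 to 0.53 and for Sln from -0.81 to 5.59, so no difference was detected and its size is bounded only by these intervals. The counts are of RNA in whole tissue and say nothing of protein or phosphorylation.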

Other observations

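Of the skeletal muscle forms of calcium handling proteins, some were most frequent in Zeb2 cKO replicates 1 and 3 and others were not. Reads of Atp2a1, which encodes the SERCA form of fast skeletal muscle, numbered 1, 3 and 4 in WT and 26, 4 and 14 in Zeb2 cKO. Ryr1, the skeletal release channel, had 4, 6 and 2 reads in WT and 19, 3 and 16 reads in Zeb2 cKO, and Jsrp1, a junctional protein of skeletal muscle, had 5, 3 and 6 reads in WT and 16, 4 and 14 reads in Zeb2 cKO. None of these passed the filter on low counts with all libraries, and all 3 overlapped between the groups through Zeb2 cKO replicate 2. Without that library all 3 were tested, with log2 fold changes of 2.50 for Atp2a1, 1.74 for Ryr1 and 1.28 for Jsrp1. Their unadjusted p was 0.00663, 0.0119 and 0.0352 and their adjusted p 0.9998 in edgeR's test.

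Casq1 was likewise highest in Zeb2 cKO replicates 1 and 3. By contrast, Cacna1s, the skeletal L-type channel, was at 3.72, 1.71 and 2.66 CPM in WT and at 2.74, 3.71 and 1.69 CPM in Zeb2 cKO, lowest in Zeb2 cKO replicate 3. Jph1, the skeletal junctophilin, was at 9.03, 5.90 and 9.56 CPM in WT and at 10.9, 9.01 and 8.06 CPM in Zeb2 cKO, and Mrln, which encodes the SERCA inhibitor myoregulin, was highest in Zeb2 cKO replicate 2, with 14 reads. Mybpc2, the fast skeletal form of myosin binding protein C, was at 19.4, 8.45 and 17.8 CPM in WT and at 37.0, 19.4 and 31.2 CPM in Zeb2 cKO, and its log2 fold change was 0.94 (standard error 0.36, unadjusted p = 0.0342 and adjusted p = 0.957 by edgeR's quasi-likelihood test) and 0.66 without WT replicate 2. Of the 10 skeletal muscle markers 3 passed the filter on low counts. Mylpf was at most 0.316 CPM, Tnnt3 at most 0.391 CPM and Myh4 at most 0.0799 CPM in any library. Tnni2 was also near 0, but higher in every Zeb2 cKO library, at 0.323 to 0.380 CPM against 0.156 to 0.273 CPM in WT. Its log2 fold change was 0.80 (unadjusted p = 0.0511 and adjusted p = 0.957 by edgeR's test). Without WT replicate 2 it was 1.12 (unadjusted p = 0.0206). Of the 10, 2 were higher and 1 lower in every Zeb2 cKO library. The summed list was 9.78 to 20.3 CPM in WT and 20.4 to 38.4 CPM in Zeb2 cKO, nearly all of it Mybpc2. These genes were picked out after their values were seen, and no test was made of them as a group.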
